A study of Mus musculus with 6 samples.

Results

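The 9 genes described here encode neuronal RNA-binding proteins of 3 families: Elavl2, Elavl3 and Elavl4 of the ELAV family, Celf1, Celf2, Celf4 and Celf5 of the CELF family, and Rbfox1 and Rbfox3 of the RBFOX family. They were taken by name from the 20234 genes of a table of unique molecular identifiers (UMIs; 1 UMI stands for 1 captured mRNA molecule) measured by Drop-seq, a droplet method that reads single cells. Cells came from the CA1 field of the hippocampus of male C57Bl6 mice at postnatal day 28 (P28), all of them wild-type. In the EPO group, 3 mice (numbers 2, 4 and 6) had received 1 intraperitoneal injection of 5000 IU/kg recombinant human erythropoietin, and in the placebo group 3 mice (numbers 1, 3 and 5) had received 1 injection of placebo; all were sacrificed 6 h later. The labels also carry a D number, D1 for placebo mice 1 and 3 and EPO mouse 2 and D2 for the others, whose meaning is not given. The study used this experiment to see the early response of CA1 cells to EPO.

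ELAV proteins bind AU-rich stretches of mRNA and stabilize the mRNAs or change their splicing, and Elavl2, Elavl3 and Elavl4 (the HuB, HuC and HuD proteins) are classical markers of neurons, whereas their relative Elavl1 is found in most cells. CELF proteins bind GU-rich stretches and act in splicing, translation and mRNA decay; Celf1 and Celf2 are broadly expressed, and Celf4 and Celf5 are mostly neuronal. RBFOX proteins control alternative exons of synaptic and ion channel genes, and Rbfox3 encodes NeuN, the antigen used to stain neuronal nuclei.

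The members lie on mouse chromosomes 4 (Elavl2, Elavl4), 9 (Elavl3), 2 (Celf1, Celf2), 18 (Celf4), 10 (Celf5), 16 (Rbfox1) and 11 (Rbfox3). In RefSeq (GRCm38.p6), 8 of the 9 were matched to a sequence window around the transcription start. The 250 bases before the start are printed for Elavl3, Celf1 and Rbfox3, because each has a single window and they stand for the 3 patterns met below: a gene also abundant in oligodendrocytes, a gene found in every class, and a gene low in every non-neuronal class. Capitals mark a TATAAA or a CCAAT on either strand (the reverse complements are TTTATA and ATTGG).
Elavl3: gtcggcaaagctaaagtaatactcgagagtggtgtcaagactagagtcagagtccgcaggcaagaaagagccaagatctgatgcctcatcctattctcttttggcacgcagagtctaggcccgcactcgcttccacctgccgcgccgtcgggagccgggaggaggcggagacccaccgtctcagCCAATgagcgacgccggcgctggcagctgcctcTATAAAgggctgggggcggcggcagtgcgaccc
Celf1: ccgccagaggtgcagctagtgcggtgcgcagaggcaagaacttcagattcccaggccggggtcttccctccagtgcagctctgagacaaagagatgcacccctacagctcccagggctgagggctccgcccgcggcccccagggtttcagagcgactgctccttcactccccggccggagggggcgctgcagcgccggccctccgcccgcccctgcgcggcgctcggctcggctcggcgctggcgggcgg
Rbfox3: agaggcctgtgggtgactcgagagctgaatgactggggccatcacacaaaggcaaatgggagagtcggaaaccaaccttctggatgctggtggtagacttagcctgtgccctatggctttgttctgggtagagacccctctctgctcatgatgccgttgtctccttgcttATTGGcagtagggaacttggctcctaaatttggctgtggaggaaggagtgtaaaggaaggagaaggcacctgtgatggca
These windows are chr9:22052024-22052273 (minus strand), chr2:90940147-90940396 (plus strand) and chr11:118761042-118761291 (minus strand). The Rbfox3 window starts inside the longest annotated span of the gene (GENCODE vM21, chr11:118489762-118911597), so it belongs to a shorter transcript. Elavl3 held a TATAAA whose first base is 33 bases before the start and a CCAAT 66 bases before it, Rbfox3 held 1 CCAAT on the opposite strand, and Celf1 held neither. Among all 32851 windows of the same length, 12.4% held a TATAAA and 33.8% a CCAAT on either strand. The Elavl3 and Celf1 windows held 20 and 24 CpG dinucleotides, and the Rbfox3 window held 3, against a median of 6 over all windows. A match of letters is a description and not a test of binding.

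Of the 6000 deposited barcodes, 973 had more than 1000 and at most 8000 detected genes and at most 40% UMIs of mt- (mitochondrial) genes and were retained as cells. They summed to 6910600 UMIs, with 43 to 271 cells and 204479 to 1948490 UMIs per mouse; placebo mouse 3 gave the fewest. Each cell was assigned to a class by its UMIs of standard marker genes, none of which is a member: 570 glutamatergic, 44 GABAergic, 75 astrocyte-like, 133 oligodendrocyte-like, 27 oligodendrocyte precursor-like (OPC), 18 microglia-like and 50 vascular-like cells, with 56 left unassigned. Every class held UMIs of all its markers in the table, and clusters made without the members gave the same class for 905 of the 917 assigned cells. Levels are given as CPM, the UMIs of a gene divided by all UMIs of the cells and scaled to 1e6. CPM were not divided by transcript length, so levels are compared between classes and mice for 1 gene, and not between genes.

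Some libraries shared barcodes or stood apart. Of 67 barcodes found in more than 1 mouse, 59 were common to placebo mouse 1 and EPO mouse 4; of these, 26 were retained in both, 24 with the same class in both, and the EPO mouse 4 copy held a median of 25.9% of the UMIs of the other. The 78 retained cells with a shared barcode were kept, and results are also given without them. In glutamatergic cells of placebo mouse 1, hemoglobin genes summed to 5378 CPM, against 26.7 to 147 CPM in the other mice, and markers of other classes to 4629 CPM, against 539 to 3271 CPM. Their part in the results was not tested. Leaving out each mouse in turn is reported where it changed a call. The median share of mt- UMIs in glutamatergic cells was 16.0%, 11.4% and 18.7% in placebo mice 1 and 3 and EPO mouse 2 (D1). It was 5.1%, 9.3% and 2.8% in placebo mouse 5 and EPO mice 4 and 6 (D2). CPM include the mt- UMIs, and alternatives without mt- genes and with at most 20% mt- UMIs were run.

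All 9 genes were detected in neurons, and for 8 of them the level in glutamatergic cells was several times higher than in the pooled glia (astrocytes, oligodendrocytes, OPC and microglia). Elavl3 was the exception: its level was highest in oligodendrocytes. Elavl2 was highest in GABAergic cells. Glutamatergic and glial cells of the same 6 mice were compared by edgeR's quasi-likelihood test on UMIs summed per mouse and class, with the mouse as a term and p-values adjusted over all genes tested. All 9 members passed at an adjusted p under 5%, 8 higher and 1 lower in glutamatergic cells, where 53.4% of the 9274 genes tested passed, 30.0% as higher and 23.4% as lower. The median log2 fold change of the members was 3.86, against 0.15 for all genes tested.

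Rbfox3, the NeuN gene, averaged 390 ± 40.9 CPM (SD, n = 6 mice) in glutamatergic cells and 8.77 ± 12.2 CPM in glia. The mouse values ran from 342 to 439 CPM in glutamatergic cells and from 0 to 32.7 CPM in glia, so the classes did not overlap, and the log2 fold change was 4.72 (SE 0.30, adjusted p = 2.8e-32). The highest glial value was that of placebo mouse 1. Rbfox1, which controls exons of ion channel and synaptic genes, was at 600 ± 77.4 CPM in glutamatergic cells and 20.4 ± 17.0 CPM in glia, a log2 fold change of 4.46 (SE 0.26, adjusted p = 3.8e-35). Both RBFOX genes were higher in glutamatergic cells in 6 of 6 mice.

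Among the CELF genes, the neuronal members Celf5 and Celf4 differed most from glia. Celf5 was at 313 ± 46.4 CPM against 14.2 ± 14.6 CPM (log2 fold change 4.09, SE 0.30) and Celf4 at 670 ± 104 CPM against 36.9 ± 16.9 CPM (3.86, SE 0.24). Celf2 and Celf1, the broadly expressed members, had smaller differences. Celf2 was at 838 ± 86.3 CPM against 108 ± 42.6 CPM (2.82, SE 0.21), and Celf1 at 348 ± 79.4 CPM against 59.4 ± 20.9 CPM (2.31, SE 0.22; SD, n = 6 mice throughout). The adjusted p-values from edgeR of these 4 genes were at most 7.9e-19, and each was higher in glutamatergic cells in 6 of 6 mice.

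The pooled cells show which non-neuronal classes carried CELF UMIs. Celf2 reached 445 CPM in microglia (95% exact Poisson interval 282 to 668, 23 UMIs), above astrocytes at 216 CPM (162 to 282) and oligodendrocytes at 48.3 CPM (34.8 to 65.3). Its interval in microglia overlapped that in GABAergic cells, 389 CPM (322 to 465). These intervals cover counting error only. The 18 microglia also carried 465 CPM of the glutamatergic marker list, against 129 to 200 CPM in the other glial classes and 3421 CPM in glutamatergic cells. The part of such RNA in their CELF levels was not tested. Celf1 was at 118 CPM in vascular cells and 136 CPM in microglia, and lowest in oligodendrocytes at 43.7 CPM, with an interval that overlapped that of astrocytes. Apart from these 2 genes, no CELF gene exceeded 87.2 CPM in a non-neuronal class. In the order of classes, neighbours after the 2 neuronal classes had overlapping intervals for Celf4, Celf5, Rbfox1 and Rbfox3.

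Elavl4 and Elavl2 were also low in glia. Elavl4 (HuD) was at 205 ± 39.1 CPM in glutamatergic cells against 12.9 ± 10.3 CPM in glia (n = 6 mice; log2 fold change 3.47, SE 0.30, adjusted p = 1.3e-21 by edgeR). OPC were the non-neuronal class with the most Elavl4, 111 CPM (50.8 to 211) from 9 UMIs, against 8.05 CPM (3.24 to 16.6) in oligodendrocytes. The OPC interval overlapped that of glutamatergic cells, 215 CPM (202 to 228). For Elavl2, glia held 1 UMI in 253 cells against 271 UMIs in glutamatergic cells, a ratio of 69.8 with an exact counting interval of 12.4 to 2765. No Elavl2 UMI was found among 869153 UMIs of oligodendrocytes, which allows up to 3.45 CPM at 3 counts and makes its level there at least 16.1-fold lower than in glutamatergic cells.

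**Figure D1:**
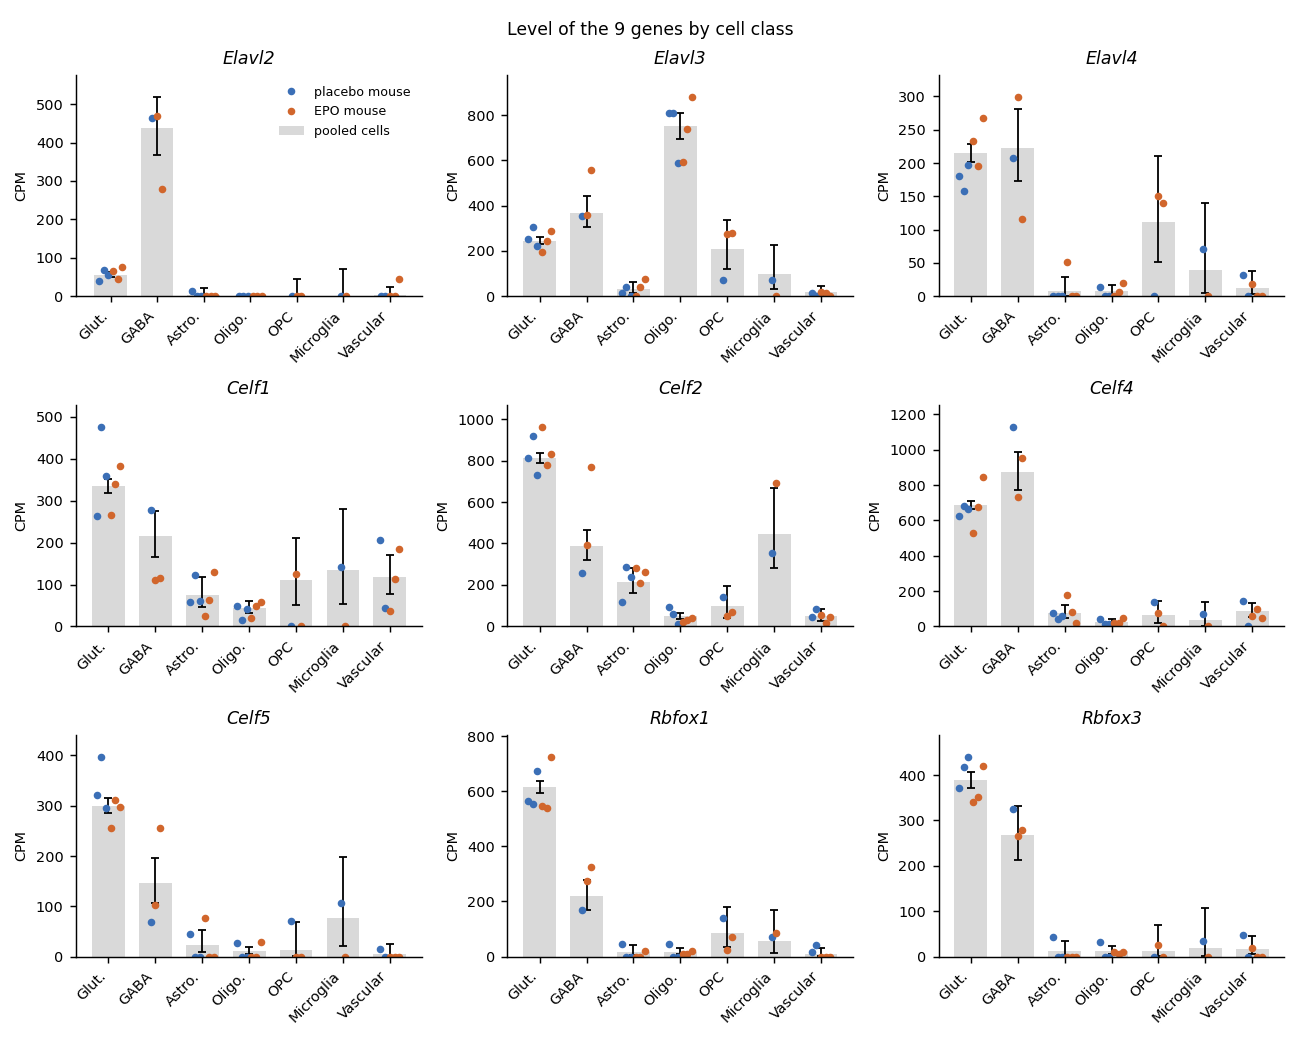
CPM of each of the 9 genes (1 panel each, linear axes from 0) in 7 cell classes. Grey bars are all cells of a class pooled with 95% exact Poisson intervals, and points are mice with at least 5 cells of the class (blue placebo, orange EPO). In the Elavl3 panel the 6 oligodendrocyte points lie between 590 and 880 CPM, all above the glutamatergic points, whereas the other 8 panels are highest in a neuronal class.

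Elavl3 (HuC), a marker of postmitotic neurons, was at 254, 306 and 223 CPM in glutamatergic cells of placebo mice 1, 3 and 5 and at 195, 245 and 287 CPM in those of EPO mice 2, 4 and 6. In oligodendrocytes of the same mice it was at 808, 808 and 590 CPM after placebo and at 592, 740 and 880 CPM after EPO. Every mouse was higher in oligodendrocytes, and the lowest oligodendrocyte value was above the highest glutamatergic value. Pooled cells gave 652 UMIs in 133 oligodendrocytes and a ratio of 3.05 (exact counting interval 2.77 to 3.36) over glutamatergic cells. Against all glia, the log2 fold change of glutamatergic cells was -1.26 (SE 0.18, adjusted p = 1.8e-10 by edgeR), and between -1.37 and -1.20 with each mouse left out in turn. Against oligodendrocytes alone it was -1.76 (SE 0.20, adjusted p = 2.1e-17), and against glia without oligodendrocytes, an alternative added after seeing the data, it turned to 1.80 (SE 0.35, adjusted p = 3.9e-06). Astrocytes and vascular cells had little Elavl3, 32.0 CPM (13.8 to 63.1) and 17.4 CPM (4.75 to 44.6), and OPC had 210 CPM (122 to 336). OPC also carried 10522 CPM of the oligodendrocyte marker list.

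The Elavl3 UMIs were spread over most oligodendrocytes. With every cell thinned to 1500 UMIs, 56.4% of 133 oligodendrocytes had an Elavl3 UMI, against 27.9% of glutamatergic cells and 5.33% of 75 astrocytes; the median depths before thinning were 5319, 5537 and 3082 UMIs. Without thinning, 91.7% of oligodendrocytes had one. For the other 8 members the thinned share in oligodendrocytes was at most 8.3%. The glutamatergic marker list summed to 129 CPM in oligodendrocytes and to 3421 CPM in glutamatergic cells. In the 80 oligodendrocytes without any UMI of that list, whose median depth was 4567 UMIs, Elavl3 was at 677 CPM. The source of the Elavl3 UMIs in oligodendrocytes was not tested. Rbfox3 was at 12.7 CPM and Celf4 at 27.6 CPM in the whole class.

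Of the genes next to Elavl3, Prkcsh also had a higher pooled level in oligodendrocytes than in glutamatergic cells and Zfp653 did not, and neither difference was tested here. Elavl3 lies on the minus strand at chr9:22015005-22052023 (mm10, GENCODE vM21). Prkcsh, on the opposite strand and ending 782 bases from it, was at 106 CPM in oligodendrocytes and 56.8 CPM in glutamatergic cells, and Zfp653, 3387 bases upstream on the same strand, at 12.7 and 17.1 CPM. A coding gene model that overlaps Elavl3 (Gm49318) is annotated but has no row in the table, and how reads in the overlap were counted is not given in the sources used here. Whether the Elavl3 UMIs of oligodendrocytes come from the same transcript end as those of neurons was not tested.

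GABAergic and glial cells were compared in the 3 mice with at least 5 GABAergic cells (placebo mouse 5 and EPO mice 4 and 6). Of the 8 members with enough UMIs, 6 were higher in GABAergic cells and none lower, where 44.4% of 2913 genes tested passed, 19.8% as higher and 24.6% as lower. The log2 fold changes were 9.02 for Elavl2, 5.41 for Rbfox3, 4.84 for Celf4, 4.47 for Rbfox1, 3.68 for Elavl4 and 2.66 for Celf2 (SE 0.39 to 0.80, adjusted p at most 5.3e-09). The value of Elavl2 depends on glia without a UMI in these mice and is not a bound. Celf1 gave 1.12 (SE 0.50, adjusted p = 0.054) and Elavl3 -0.43 (SE 0.33, adjusted p = 0.31), and neither passed. Against oligodendrocytes alone, Elavl3 was lower in GABAergic cells (-0.89, SE 0.32, adjusted p = 0.014). Celf5 had too few UMIs to be tested.

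Within neurons, Elavl2 (HuB) differed most, with the higher level in GABAergic cells. It was at 465, 470 and 279 CPM in GABAergic cells of placebo mouse 5, EPO mouse 4 and EPO mouse 6 and at 54.5, 43.7 and 75.0 CPM in glutamatergic cells of the same mice. The values did not overlap, and the log2 fold change of glutamatergic over GABAergic cells was -3.02 (SE 0.33, adjusted p = 2.8e-17 by edgeR). At 1500 UMIs per cell, 36.4% of 44 GABAergic and 7.89% of 570 glutamatergic cells had an Elavl2 UMI, against 0 of 133 oligodendrocytes.

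In the opposite direction, Rbfox1 was higher in glutamatergic cells by 1.24 (SE 0.31, adjusted p = 0.0012), Celf5 by 1.19 (SE 0.36, adjusted p = 0.013) and Celf1 by 0.97 (SE 0.33, adjusted p = 0.038) on the log2 scale, each in 3 of 3 mice. Elavl3 was lower in glutamatergic cells by -0.84 (SE 0.29, adjusted p = 0.042). So 5 of 9 members passed, 3 as higher and 2 as lower in glutamatergic cells, where 9.89% of 7621 genes tested did, 5.85% as higher and 4.04% as lower. The other 4 did not pass: Celf2 at 0.74 (SE 0.28, adjusted p = 0.080), Celf4 at -0.48 (SE 0.27), Rbfox3 at 0.34 (SE 0.30) and Elavl4 at -0.16 (SE 0.33). Only the Elavl2 difference passed under every alternative run; by DESeq2 Elavl2 and Rbfox1 passed, and by limma Elavl2 alone. Without EPO mouse 4 the calls of Elavl3, Celf1 and Celf5 were lost, and without placebo mouse 5 those of Elavl3, Celf5 and Rbfox1, and without EPO mouse 6 those of Elavl3 and Celf1. Without the shared barcodes the adjusted p of Elavl3 was 0.052. Over all alternatives run, 23 member calls were lost in this comparison, and not all of them are named here.

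Against the 50 vascular cells, compared in 5 mice, all 9 members were higher in glutamatergic cells, with log2 fold changes from 1.68 (Celf1, SE 0.37) to 6.22 (Rbfox1, SE 0.58) and adjusted p-values of at most 0.0013, where 39.9% of 8598 genes tested passed, 29.8% as higher and 10.1% as lower. Genes were filtered on the UMIs of both classes together, so a gene could be tested with almost none in vascular cells. The median log2 fold change over all genes tested was 0.69. With edgeR's filterByExpr as the filter it was 0.30, and 1779 of 6166 genes passed as higher and 1172 as lower. The mouse values overlapped for Elavl2 alone, up to 45.9 CPM in vascular and down to 38.8 CPM in glutamatergic cells. Elavl2 and Celf5 each had 1 UMI in vascular cells. For Celf5 this gives a pooled ratio of 68.9 (exact counting interval 12.3 to 2722) and for Elavl2 one of 12.8 (2.28 to 507). Celf1 had the smallest ratio, 2.85 (1.95 to 4.34).

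**Figure D2:**
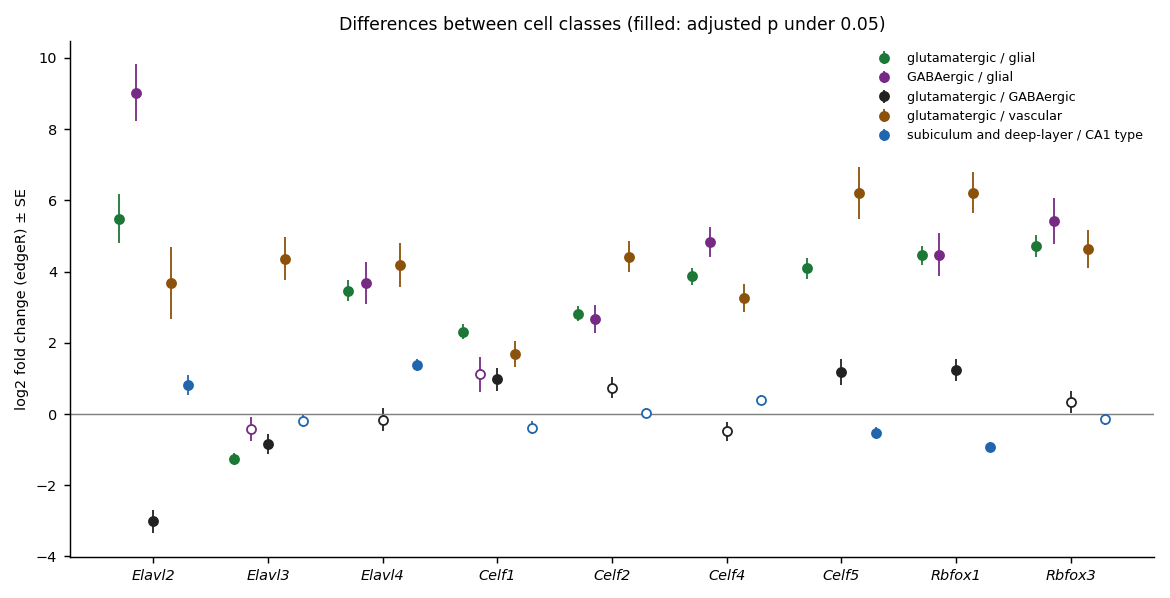
log2 fold changes with SE from edgeR for the 9 genes (horizontal axis) in 5 comparisons of cell classes (colours); filled points have an adjusted p under 5%, and open points do not. Elavl3 lies at -1.26 for glutamatergic against glial cells (green) while the other 8 genes lie above 2, and Elavl2 lies at -3.02 for glutamatergic against GABAergic cells (black).

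The genes most like each member over the 7 classes were found by Pearson's r of log2(CPM + 10) among 9663 genes, a description over 7 points that share their libraries. Rbfox1 was nearest to Scn8a, a sodium channel gene (r = 0.998), and Rbfox3 to E130309D14Rik, Camk1g and Mgat4c (r = 0.996 for each). Celf5 was nearest to Eno2, the neuronal enolase (r = 0.988), Celf2 to Camk1d (0.987), Celf4 to Herc1 (0.991) and Celf1 to Vps13c (0.984). For the ELAV genes the nearest were 4930447C04Rik for Elavl2 (0.993), Snx25 for Elavl4 (0.985) and 1110065P20Rik for Elavl3 (0.984). No member was among the 3 nearest genes of another member.

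The glutamatergic cells were then split by markers. The CA1 type held 338 cells (Wfs1, Fibcd1, Pou3f1 and others) and the subiculum and deep-layer type 126 cells (Tshz2, Rxfp1, Tle4 and others). The remaining 106 cells were assigned to neither type, 70 of them because the scores of both types were too close. Elavl4 and Elavl2 were higher in the subiculum and deep-layer type, and Rbfox1 and Celf5 were lower. Thus 4 of 9 members passed in the 5 mice with enough cells of both types, where 14.9% of 7815 genes tested passed, 7.27% as higher and 7.65% as lower. The median log2 fold change was -0.14 for the members and 0.01 for all genes tested. The paper listed Elavl4 and Celf4 among the markers of its immature glutamatergic cluster, found in these same cells. Tle4, Tbr1 and Hs3st4, listed there beside them, are among the markers of the subiculum and deep-layer type here. The differences of Elavl4 and Celf4 are therefore not independent of that earlier result.

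Elavl4 was at 316, 327, 366, 292 and 524 CPM in the subiculum and deep-layer type of placebo mice 1 and 5 and EPO mice 2, 4 and 6. In the CA1 type of the same mice it was at 108, 179, 159, 138 and 159 CPM. It was higher in 5 of 5 mice without overlap, by 1.37 on the log2 scale (SE 0.17, adjusted p = 8.7e-09 by edgeR). Rbfox1 went the other way, with 340, 372, 269, 387 and 441 CPM in the subiculum and deep-layer type and 692, 734, 597, 690 and 894 CPM in the CA1 type. It was lower in 5 of 5 mice without overlap, with a log2 fold change of -0.93 (SE 0.15, adjusted p = 3.2e-06). These 2 genes passed under every alternative run, also without the shared barcodes.

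Celf5 was at 222 ± 19.7 CPM in the subiculum and deep-layer type and 331 ± 38.7 CPM in the CA1 type (n = 5 mice), lower in 5 of 5 mice, with a log2 fold change of -0.52 (SE 0.17, adjusted p = 0.026). Elavl2 was at 75.2 ± 26.6 and 44.5 ± 10.7 CPM, higher in 4 of 5 mice, by 0.82 (SE 0.27, adjusted p = 0.032). Both calls were lost without the shared barcodes (-0.43 and 0.67), by DESeq2 and by limma. Celf5 was also not called without placebo mouse 1, EPO mouse 4 or EPO mouse 6, and Elavl2 without any of these or placebo mouse 5. Over all alternatives run, 20 member calls were lost in this comparison, and not all of them are named here. Celf4 was higher in 4 of 5 mice and did not pass (0.40, SE 0.15, adjusted p = 0.056). Celf1 (-0.38, SE 0.17), Elavl3 (-0.19, SE 0.17), Rbfox3 (-0.14, SE 0.16) and Celf2 (0.03, SE 0.14) did not pass either.

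**Figure D3:**
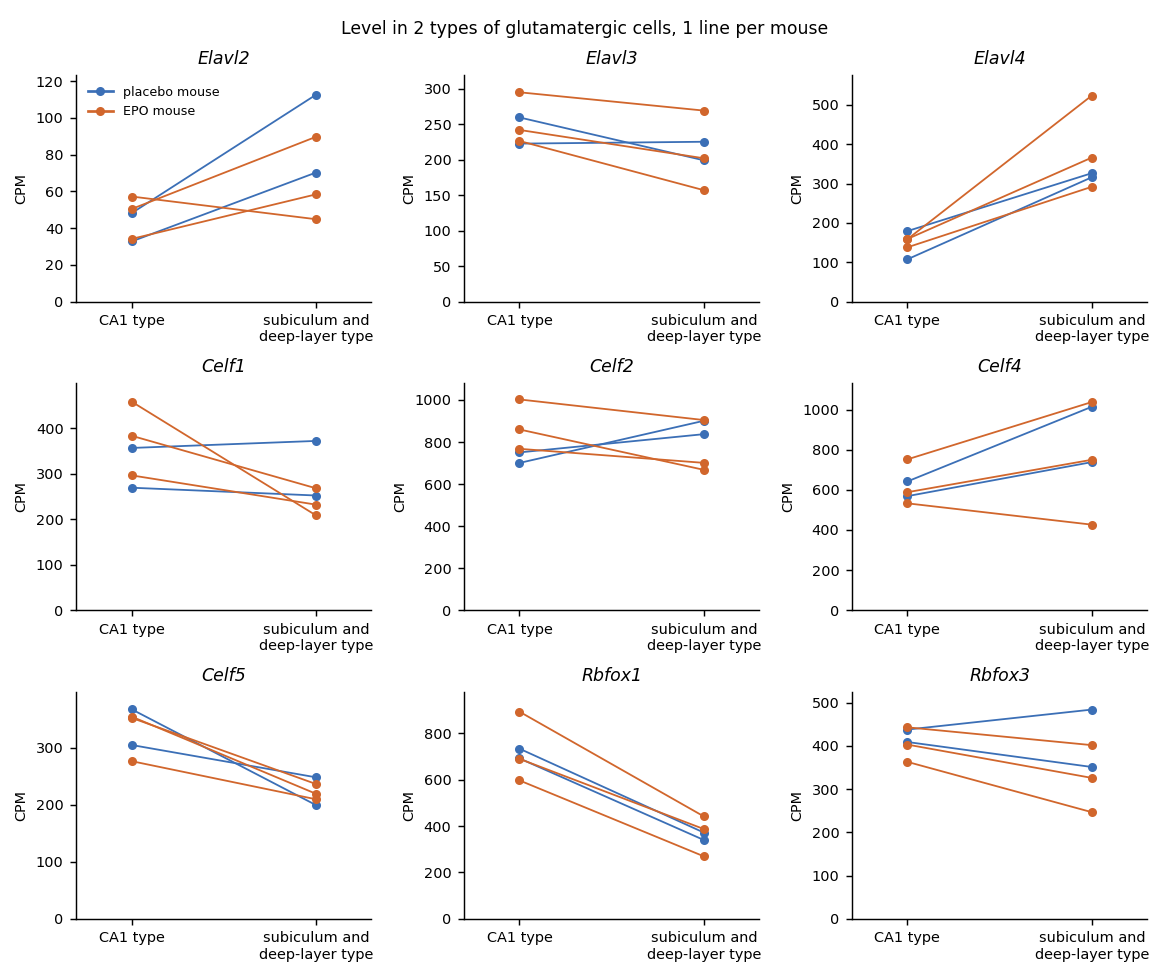
CPM of each gene in the CA1 type and in the subiculum and deep-layer type, with 1 line for each of 5 mice (blue placebo, orange EPO; linear axes from 0). All 5 lines rise for Elavl4 (from 108 to 179 CPM up to 292 to 524 CPM) and fall for Rbfox1 and Celf5.

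Single glutamatergic cells held several members at once. At 1500 UMIs per cell, 78.9% of glutamatergic and 68.2% of GABAergic cells had UMIs of 3 or more of the 9 genes, against 0.752% of oligodendrocytes and 4% of astrocytes. Without thinning, the shares were 99.1%, 97.7%, 21.8% and 10.7%. A glutamatergic cell had UMIs of 3.56 ± 0.26 members on average at this depth (SD, n = 6 mice). Celf2 was detected in 72.8% of them, Celf4 in 56.5%, Rbfox1 in 54.4% and Elavl2 in 7.89%.

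Pairs of members were found together about as often as their separate shares give. The count of pairs in the same cell, divided by the count from the product of the shares in each mouse, was 1.03 ± 0.08 (n = 6 mice, range 0.968 to 1.19), where 1 stands for independent detection. The highest value came from placebo mouse 3, with 14 cells. A second random thinning to the same depth gave 0.992 ± 0.016 (range 0.969 to 1.01), with placebo mouse 3 at 0.969. Over the 36 pairs the ratio in the first thinning ran from 0.881 (Elavl2 with Rbfox1, 21 cells) to 1.26 (Elavl2 with Rbfox3, 20 cells). Among the 36 pairs, only Celf5 with Rbfox3 was above 1 in 6 of 6 mice, with 84 cells observed and 73.2 from the product (ratio 1.15). With so many pairs and few mice this is easily met by chance, and single pairs were not counted in the second thinning. These ratios were not tested, and the highest and lowest rest on about 20 cells each.

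EPO did not give a detectable difference for any member in glutamatergic cells. None of the 9 members, and 0 of 8324 genes tested (0%), passed by edgeR; 139 genes had an unadjusted p under 0.05, and DESeq2 and limma also called 0 genes. Member log2 fold changes of EPO over placebo ran from -0.25 (Celf5, SE 0.20) to 0.29 (Elavl4, SE 0.20), with a median of -0.06, against 0.00 for all genes tested. In counts simulated for this comparison, with 200 random genes changed, 90.5% of 4-fold and 28.5% of 2-fold changes were called. At that setting smaller changes would mostly be missed. Every simulated gene had the same dispersion of 0.05, which was not estimated from these data. The changed genes could hold as few as 60 UMIs, whereas the members held 271 to 3950, so these rates do not measure the power for the members.

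Elavl4 was at 181, 158 and 197 CPM in glutamatergic cells of placebo mice 1, 3 and 5 and at 233, 195 and 268 CPM in those of EPO mice 2, 4 and 6. EPO mouse 4 lay just below placebo mouse 5, so the groups overlapped, and the difference of 53.1 CPM had an adjusted p of 1.0 (unadjusted 0.18). Elavl2 was at 38.8, 67.9 and 54.5 CPM after placebo and 64.3, 43.7 and 75.0 CPM after EPO, also with overlap.

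Celf5 was at 321, 396 and 296 CPM after placebo and 256, 311 and 297 CPM after EPO. Placebo mouse 3, with 14 glutamatergic cells, was the highest, and EPO mouse 2 the lowest. Celf1 was at 265, 475 and 359 CPM after placebo and 265, 340 and 384 CPM after EPO, again with placebo mouse 3 highest. For Celf2 the placebo values were 814, 917 and 729 CPM and the EPO values 961, 779 and 830 CPM. Celf4 was at 622, 679 and 666 CPM after placebo and between 529 and 848 CPM after EPO, so that the EPO mice spanned all placebo mice.

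Rbfox3 was at 371, 419 and 439 CPM after placebo and 342, 351 and 421 CPM after EPO. Rbfox1 was at 565, 555 and 673 CPM and at 547, 540 and 722 CPM, and Elavl3, given above, at 261 ± 41.7 and 242 ± 46.1 CPM (n = 3 mice each). In CPM the groups overlapped for all 9 genes; over all genes tested, the groups did not overlap for 6.42%, with EPO higher for 4.54% and lower for 1.87%. On the mean over cells of log-normalized values, where each cell weighs the same, the EPO mice lay above the placebo mice without overlap for 2 members, as did 5.39% of all genes tested (6.64% in either direction, 1.25% with EPO lower). Elavl2 was at 0.233, 0.138 and 0.257 after placebo and at 0.352, 0.265 and 0.381 after EPO, and Elavl4 at 0.591, 0.703 and 0.758 and at 0.790, 0.814 and 0.817 (natural log scale). Both gave a p of 0.1 in the 2-sided exact permutation test, the smallest that 3 against 3 mice allow. These 2 members were also higher in the subiculum and deep-layer type than in the CA1 type. The subiculum and deep-layer type held 18, 2 and 17 cells after placebo and 20, 50 and 19 cells after EPO. The CA1 type held 48, 7 and 98 cells after placebo and 50, 75 and 60 cells after EPO. The part of this makeup in the EPO values was not tested. Within D1 the EPO mouse was below the mean of the placebo mice for 6 members, and within D2 the mean of the EPO mice was below the placebo mouse for 2, Rbfox1 and Rbfox3; for Rbfox1, EPO mouse 6 was above it.

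**Figure D4:**
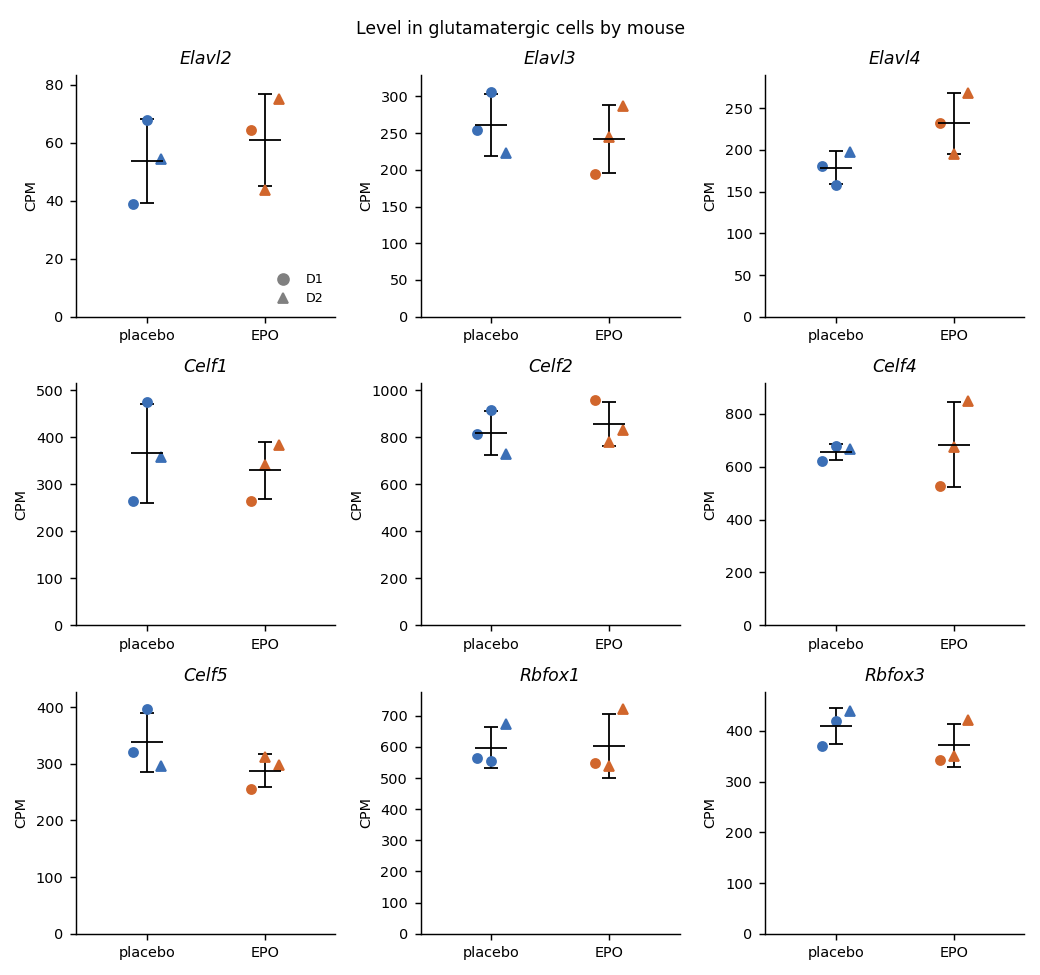
CPM of each gene in glutamatergic cells of 3 placebo (blue) and 3 EPO mice (orange), circles for D1 and triangles for D2, with the mean and SD of each group in black (linear axes from 0). The groups overlap in every panel; for Elavl4 the EPO values are 195 to 268 CPM and the placebo values 158 to 197 CPM.

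Over all retained cells, where the makeup of classes also enters, no member passed either, nor did any of 9791 genes tested (0%; 132 with an unadjusted p under 0.05; 1 by DESeq2 and 0 by limma). Elavl4 had the largest member difference (0.45, SE 0.26, unadjusted p = 0.11), with 132, 78.2 and 178 CPM after placebo and 180, 165 and 227 CPM after EPO. The groups overlapped for all 9 members, and did not overlap for 5.92% of all genes (EPO higher for 3.98%, lower for 1.94%). In GABAergic cells, too few for a test, 1 member, Celf2, had groups without overlap, as did 5.18% of 792 genes with enough UMIs (EPO higher for 3.41%, lower for 1.77%): 174, 0 and 257 CPM after placebo from 3, 1 and 14 cells, and 437, 393 and 768 CPM after EPO from 4, 13 and 9 cells. The single cell of placebo mouse 3 allows up to 1162 CPM at 3 counts, so its 0 sets no limit. In oligodendrocytes Elavl3 was at 735 ± 126 CPM after placebo and 737 ± 144 CPM after EPO (n = 3 mice each).

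The other genes of RNA regulation, 37 in all, were read as background. Of the 34 with enough UMIs, 15 were higher and 6 lower in glutamatergic than in glial cells, with a median log2 fold change of 0.50. Over all genes tested, 30.0% were higher and 23.4% lower. Qk, the glial splicing regulator quaking, was lowest at -4.92 (SE 0.23, adjusted p = 9.8e-45). All 5 textbook mRNA targets of ELAV proteins passed as higher, among them Gap43 (3.71, SE 0.25), Nrn1 (3.32, SE 0.26) and Homer1 (2.94, SE 0.25). Of the paralogues, Rbfox2, Celf3 and Celf6 were higher, and Elavl1 did not pass (-0.21).

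Against vascular cells, 19 of these 34 genes were higher and 3 lower in glutamatergic cells, with Gap43 at 4.25 (SE 0.44) and Qk at -2.43 (SE 0.30). GABAergic against glial cells gave 5 higher and 2 lower of 17 tested, with Srrm3, an activator of neuronal microexons, at 5.25 (SE 0.67). Glutamatergic against GABAergic cells gave 6 higher and 3 lower, with the secreted factors Nrn1 (6.12, SE 0.72) and Bdnf (4.39, SE 0.69) higher and Msi2 lower (-2.33, SE 0.43). In the subiculum and deep-layer type 5 were higher, such as the splicing regulators Nova1 (2.07, SE 0.37) and Srrm4 (1.31, SE 0.26), and 4 lower, such as Bdnf (-1.67, SE 0.24), than in the CA1 type. Except for Elavl1, the related genes named had an adjusted p from edgeR of at most 0.00014. EPO against placebo gave 0 of 34 in both cell sets. Over all genes tested, the shares higher and lower were 29.8% and 10.1% against vascular cells and 19.8% and 24.6% for GABAergic against glial cells. They were 5.85% and 4.04% for glutamatergic against GABAergic cells and 7.27% and 7.65% between the types. All 5 ELAV targets were higher in glutamatergic than in vascular cells, and 2 of 2 tested in GABAergic than in glial cells. In glutamatergic against GABAergic cells, where Elavl2 and Elavl3 were lower, 4 targets were higher. In the subiculum and deep-layer type, where Elavl4 and Elavl2 were higher, 3 targets were lower than in the CA1 type and none higher. The calls of Elavl3 against GABAergic cells and of Elavl2 between the types were lost under several alternatives. A relation between members and targets was not tested.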

How the data were processed

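Drop-seq libraries of CA1 cells from 6 mice were analysed from 1 deposited table of UMI counts per gene and cell barcode, 1000 barcodes per mouse, which the authors had not normalized. The submitters' processing notes name bcl2fastq 2.15, STAR 2.4.0 and the mm10 genome; the counting tool, the annotation and the way barcodes were picked are not given in the sources used here. Genes that a mouse never showed have missing values there, and these were read as 0.

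Cells with more than 1000 and at most 8000 detected genes and at most 40% UMIs of the 27 mt- genes were retained. A cell was assigned to the class with the highest score over its marker list where it held at least 3 marker UMIs and the score was 2-fold above the next class, and otherwise left unassigned; no doublet caller was run. Names therefore come from markers and not from the study's own annotation. UMI counts were summed per mouse and class, for mice with at least 5 cells of both classes compared, and genes with at least 60 UMIs over the sums entered were tested by edgeR 4.0.16 (R 4.3.3; TMM scaling, quasi-likelihood F test, 2-sided, Benjamini-Hochberg adjustment at 5%). Comparisons of classes had the mouse as a term, and EPO against placebo had none. DESeq2 1.42.0, limma 3.58.1 (prior count 2), clusters from scanpy 1.11.5 and other filters were alternatives. Depth per mouse and exact Poisson intervals (95%, scipy 1.17.1) stand with the values. Tested on simulated data with 200 changed genes, glutamatergic against glial cells (9274 genes) recovered 78% of 4-fold and 38% of 2-fold changes. With none changed, 0 calls were made. In all simulated data every gene had the same dispersion, which was not estimated from the deposited counts, and the changed genes were drawn at random. All simulated libraries came from a single mean profile without an effect of the mouse, and only the 200 genes differed. In the deposited data 53.4% of genes passed for glutamatergic against glial cells, so these rates do not measure the power of that comparison.

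The members, the lists of related genes and the comparisons were chosen with earlier results of these data known, although the members were then selected by name. All 9 members are named in every comparison; of the 37 related genes, up to 4 per comparison were to be named, those with the smallest adjusted p, and the paralogues that passed and Elavl1 were named after their values were seen. The alternatives without shared barcodes, without the EPO mouse 4 copies and with glia without oligodendrocytes were chosen after seeing the data.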

Additional observations from a re-analysis of the deposited data

Results flagged for a closer look

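In 2 of 35 sets of mice examined, 1 mouse lay far from the rest by Dixon's criterion, where chance gives about 1 in 20. Rbfox3 in oligodendrocytes was at 31.1 CPM in placebo mouse 1, the mouse whose glutamatergic cells also carried the most hemoglobin UMIs, and Elavl2 in the CA1 type was at 103 CPM in placebo mouse 3, from 7 cells.

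For 3 members the D1 and D2 mice moved in opposite directions in glutamatergic cells, with every EPO mouse on 1 side of every placebo mouse within each D number. EPO minus placebo was -85.4 CPM in D1 and 42.8 CPM in D2 for Elavl3, -122 and 95.4 CPM for Celf4, and -102 and 7.97 CPM for Celf5. For Celf5 in D2, EPO mouse 6 at 297 CPM was barely above placebo mouse 5 at 296 CPM, well within counting error. With so few mice in each D number, such separation is easily met by chance, and its share over all genes was not counted. The median share of mt- UMIs in glutamatergic cells was also higher in every D1 mouse than in every D2 mouse. The difference between D1 and D2 was not tested.

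The 5027 barcodes outside the cell filter also held UMIs of all 9 members, each at a lower level than in the retained cells. Their levels were 34.2 CPM for Elavl2, 182 CPM for Elavl3, 88.4 CPM for Elavl4, 192 CPM for Celf1, 492 CPM for Celf2, 349 CPM for Celf4, 138 CPM for Celf5, 207 CPM for Rbfox1 and 124 CPM for Rbfox3.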

How the results depend on the processing

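All 9 calls against glia and against vascular cells passed under every alternative run, and Elavl3 alone turned, to 1.80 against glia without oligodendrocytes (2834 genes called). The median over all genes, 0.69 against vascular cells, was 0.83 by DESeq2, 1.15 by limma and 0.87 without mt- genes, and that against glia 0.15 or, with no filter, 0.40; the members lay above these shifts except Elavl3 against glia. For EPO against placebo, whose mice are different animals, no paired analysis was possible because the groups share no replicate numbers; comparisons of classes had the mouse as a term. The causes of the changes below were not tested.

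Genes called for EPO in glutamatergic cells were 11 with no filter and 0 to 8 with a mouse left out (8 without placebo mouse 5), and in all cells 1 by DESeq2, 52 with no filter and 2 with the D number as a term; no member was among the calls. Glutamatergic against GABAergic cells gave 375 genes by DESeq2, 294 by limma and 314 to 676 with a mouse left out (lowest without EPO mouse 4), with 2, 1 and 2 to 4 members, and 3 members with classes from clusters. GABAergic against glial cells gave 485 to 946 genes and 2 to 5 members with a mouse left out (lowest without EPO mouse 4), since members fell below the filter. The glutamatergic types gave 736 genes by DESeq2 and 715 to 1039 with a mouse left out (lowest without EPO mouse 4), and 2 members by DESeq2, by limma and without shared barcodes, or 2 to 5 with a mouse left out. Members per cell were 2.70 at 1000 UMIs and 6.47 without thinning. In GABAergic cells, 1 to 3 members had groups without overlap with a mouse left out, 3 without placebo mouse 1. The share over all genes was not counted for these sets, and with so few mice such separation is easily met by chance.

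No reversed difference below had passed. For EPO in glutamatergic cells, Celf4 turned to 0.048 with no filter, 0.0041 without mt- genes, 0.063 at 20% mt- UMIs, 0.020 with a stricter margin and 0.0024 without the EPO mouse 4 copies, and Celf2 to -0.026 at 20% mt- UMIs and -0.014 without shared barcodes. Mean log-normalized values gave 0.0055 for Celf1, 0.052 for Celf4, 0.046 for Celf5 and 0.026 for Rbfox1. With a mouse left out, Celf1 ran from -0.31 to 0.045, Celf2 from -0.14 to 0.11 and Celf4 from -0.11 to 0.10. In all cells, Rbfox3 turned to 0.045 by limma, 0.027 with no filter, 0.0024 by filterByExpr, 0.0025 at 20% mt- UMIs and 0.053 without shared barcodes, Celf5 to 0.0064 with no filter, 0.098 without shared barcodes and 0.11 by log-normalized means, Celf1 to -0.085 with the D number and Elavl3 to 0.0094 by log-normalized means. With a mouse left out, Celf1 ran from -0.10 to 0.15, Celf5 from -0.11 to 0.027, Rbfox1 from -0.037 to 0.38 and Rbfox3 from -0.15 to 0.21. Against GABAergic cells, Elavl4 turned to 0.046 by limma and 0.093 with no filter and ran from -0.53 to 0.25, and between the types Celf2 turned to -0.084 with no filter and -0.27 at 20% mt- UMIs and ran from -0.073 to 0.16. Leaving out a mouse gave no value where the mouse had not entered or a member fell below the filter.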
